A study of Mus musculus with 31 samples.

Results

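The genes described here encode the central proteins of the myelin sheath and the enzymes that make its characteristic lipids: Mbp, Mobp, Cnp, Mag, Mog, Cldn11, Mal, Ugt8a and Fa2h. They were taken by symbol, as every probe set that the platform annotation assigns to 1 of these 9 symbols and to no other, which gave 24 probe sets of the 45037 non-control probe sets on the array and 9 of the 18194 genes that had such a probe set. Mbp had 8 probe sets, Mobp 5, Cnp 3, Mal and Ugt8a 2 each, and Mag, Mog, Cldn11 and Fa2h 1 each. Each gene is described by its brightest probe set, that whose mean over the 31 arrays is highest, and the other probe sets are given beside it.

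RNA from 31 samples was hybridised to Affymetrix mouse arrays, and the labels place the samples in 10 groups of sorted CD4 T cells from spleen and lymph nodes. Mice with a bicistronic Foxp3/EGFP reporter are given as the source of natural Treg (CD4+Foxp3+EGFP+, 4 arrays) and conventional T cells (CD4+Foxp3-EGFP-, 3). The same mice are given as the source of activated T cells (conventional cells stimulated with anti-CD3 and anti-CD28 mAbs without TGF-beta, 4) and of activated natural Treg (natural Treg given both mAbs and TGF-beta, 3). Induced Treg (5) are labelled as conventional cells that turned EGFP+ within 3 days of both mAbs with TGF-beta, and failed induced Treg (3) as cells of those cultures that stayed EGFP-. The Foxp3deltaEGFP allele is labelled as carried by natural Foxp3-delta cells, sorted from heterozygous females (2), and by induced Foxp3-delta cells, induced for 3 days from the EGFP- cells of mutant males (3). Induced Treg and induced Foxp3-delta cells were also labelled as kept for 1 week in IL-2 at 100 units/ml (2 arrays each). Samples of a group carry numbers in the labels, with no separate mice or cultures named for them, so a p-value here measures only how far these samples spread, and that spread may be technical.

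The RNA measured on the arrays did not match these labels. Most markers of T cells were in the lower part of every array, and the median percentile of 10 T cell genes within an array ran from 24.3 to 32.9. Among them Zap70 lay higher, at percentiles of 64.8 to 68.0, and Cd3e ranged from 40.1 to 57.8. Foxp3, the factor that defines regulatory T cells, had a deposited intensity of 7.62 to 17.0. Lists of neuron genes (6) and astrocyte genes (5) had median percentiles of 99.3 to 99.8 and 98.9 to 99.5. Sox10, the transcription factor of myelinating glia, had intensities of 575.5 to 2630. Xist, which female cells express, was between 1719 and 4523 on all 31 arrays, those labelled as cells of mutant males included. Groups are therefore named below as labels of arrays, and a difference between labels cannot be read as a difference between the T cell populations they name.

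Myelin is the stack of membrane that oligodendrocytes wrap around axons in the brain and spinal cord. Its inner faces are glued together by myelin basic protein, its innermost and outermost layers carry adhesion molecules that face the axon and the surroundings, and its membrane is rich in galactosylceramide and sulfatide, lipids built from 2-hydroxylated fatty acids. In oligodendrocytes the factors SOX10 and MYRF switch on many of these genes together, and oligodendrocytes in turn send some of the messages, Mbp and Mobp among them, far out into their processes. In RNA from whole tissue, fewer cells of a type and less RNA per cell cannot be told apart.

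The promoter sequences are shown because SOX10 and MYRF are the known shared regulators of this gene group. RefSeq windows of build GRCm38.p6, reaching from 250 bases before to 50 after a start site, were matched for 7 of the 9 genes, with 9 windows in all. None was matched for Mbp or Fa2h. The windows were searched on both strands for ACAAAG and ACAATG, cores of sites bound by SOX factors, and for CTGGCAC and CTGGTAC, which MYRF binds. No match overlapped another. The 4 stretches below lie before the first base of the gene, run 5′ to 3′ on the gene's own strand, and have the matches in capitals, where CTTTGT is ACAAAG and GTACCAG is CTGGTAC on the other strand.
Mobp, chr9:120149492-120149741, plus strand: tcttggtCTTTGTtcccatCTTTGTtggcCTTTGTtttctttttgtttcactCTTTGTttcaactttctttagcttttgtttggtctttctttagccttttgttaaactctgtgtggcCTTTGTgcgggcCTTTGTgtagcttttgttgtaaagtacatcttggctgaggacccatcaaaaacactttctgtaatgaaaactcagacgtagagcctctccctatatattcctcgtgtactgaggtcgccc
Mag, chr7:30914923-30915172, minus strand: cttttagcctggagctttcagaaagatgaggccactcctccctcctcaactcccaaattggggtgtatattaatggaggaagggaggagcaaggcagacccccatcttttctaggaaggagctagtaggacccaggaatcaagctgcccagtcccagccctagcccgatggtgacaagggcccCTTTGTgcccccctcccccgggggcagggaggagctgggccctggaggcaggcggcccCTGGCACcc
Cnp, chr11:100574689-100574908, plus strand: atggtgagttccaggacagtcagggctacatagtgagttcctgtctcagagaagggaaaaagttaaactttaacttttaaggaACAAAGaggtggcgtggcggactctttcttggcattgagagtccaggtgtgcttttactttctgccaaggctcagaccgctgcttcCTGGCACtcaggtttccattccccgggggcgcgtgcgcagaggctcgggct
Mog, chr17:37023399-37023648, minus strand: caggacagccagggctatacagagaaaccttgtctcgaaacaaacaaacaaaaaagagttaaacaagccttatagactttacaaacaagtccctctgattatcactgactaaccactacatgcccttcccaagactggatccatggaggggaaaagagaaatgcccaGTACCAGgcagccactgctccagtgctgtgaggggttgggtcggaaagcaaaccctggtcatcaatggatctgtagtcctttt

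Mobp had 6 copies of the SOX core in its window, with leftmost bases at -243, -231, -221, -198, -132 and -120 from the start site. Mag had 1 ACAAAG at -67 and 1 CTGGCAC at -9, and Cnp had 1 ACAAAG at -167 and 1 CTGGCAC at -81. The Cnp window belongs to a start site downstream of the gene's first base, 100574909. Its positions therefore do not count from the end of the printed stretch. Mog had 1 CTGGTAC at -83. The windows of Mal, Cldn11 and Ugt8a held none of the 4 motifs. ACAAAG was present in 4 of the 9 windows and in 18.7% of all 32851 windows of the same length, CTGGCAC in 3 and in 5.01%, CTGGTAC in 1 and in 2.24%, and ACAATG in 0 and in 12.6%. Some of the 9 windows belong to alternative starts of Mag and overlap, so they are not independent. These matches describe letters in a window, and no binding was measured here.

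All 9 genes lay near the top of every array. The lowest percentile that any of the 9 brightest probe sets reached on any of the 31 arrays was 94.98, and the median percentile of the 9 on an array ran from 98.7 to 99.5. Of the 24 probe sets, 12 had a median percentile of at least 99 and 20 of at least 95. The plot of ranks shows these positions for each probe set. A percentile gives the place of a probe set on its array, and probe sets bind their targets with different strength, so the places do not rank the genes' messages.

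**Figure D1:**
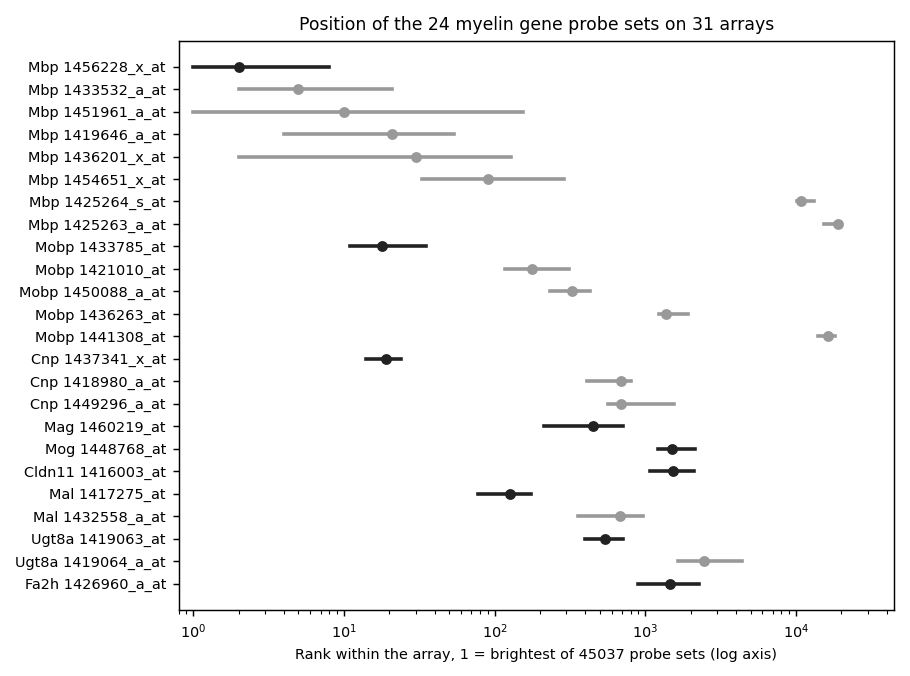
Rank of each of the 24 myelin gene probe sets within the array, where 1 is the brightest of 45037 probe sets (log axis); points mark the median and bars the lowest and highest rank over the 31 arrays, in black for each gene's brightest probe set. The brightest probe set of Mbp stayed within ranks 1 to 8, and that of Fa2h ranged from 900.0 to 2260, while Mbp 1425264_s_at, Mbp 1425263_a_at and Mobp 1441308_at had best ranks of 10147.5, 15314 and 14038.

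Mbp encodes myelin basic protein, which holds the cytoplasmic faces of the membrane stack together. Its brightest probe set, 1456228_x_at, had a deposited intensity of 19985 ± 3247 (SD, n = 31) and ranged from 12323 to 28365. It ranked between 1 and 8 on every array, and an Mbp probe set was the brightest of the whole array on 14 of the 31 arrays; a probe set of Fth1, a ferritin subunit, was brightest on another 14. Its coefficient of variation was 16.2%, the smallest of the 9. In Affymetrix names the endings _x_at and _s_at mark probe sets whose probes may also match other transcripts. On the arrays labelled natural Treg it measured 15942, 19188, 16416 and 17569, and on those labelled activated natural Treg 19409, 23087 and 22927. On the arrays labelled conventional T it measured 20543, 17178 and 18963. Those labelled activated T gave 21564, 21660, 12323 and 22836, and the third of these was the lowest of all 31.

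Mobp encodes a small basic protein of compact myelin. Its probe set 1433785_at had an intensity of 14902 ± 2939 (SD, n = 31), between 10067 and 22529, and ranked 11 to 35. The arrays labelled natural Treg gave 12884, 13705, 11976 and 10881, and those labelled activated natural Treg gave 16617, 17420 and 19952. The highest value of all was on array 3 of failed induced Treg and the lowest on array 3 of activated T.

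Cnp encodes a phosphodiesterase of the cytoplasmic channels of myelin. Its probe set 1437341_x_at had an intensity of 14769 ± 2911 (SD, n = 31) and ranked 14 to 24 on every array. The arrays labelled natural Treg gave 12707, 13019, 12052 and 12052, and those labelled activated natural Treg gave 14439, 16922 and 18033. The log2 ratio of the brightest probe sets of Mobp and Cnp within an array had an SD of 0.0848 over the 31 arrays, the smallest of the 36 pairs of genes. Both sit near the top of every array and share its scaling, so a narrow ratio is no sign that they vary together. The ratio of Mbp to Cnp had an SD of 0.102 and that of Mbp to Mobp an SD of 0.135.

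Mag and Mog encode adhesion proteins of the immunoglobulin family, Mag on the innermost wrap facing the axon and Mog on the outer surface. Mag 1460219_at had an intensity of 4896 ± 1532 (SD, n = 31), from 2566 on array 3 of activated T to 9806 on array 3 of failed induced Treg. Mog 1448768_at had an intensity of 1990 ± 705 (SD, n = 31), from 1124 on array 3 of activated T to 3820 on array 4 of induced Treg, and its coefficient of variation of 35.4% was the largest of the 9. The deposited Mog values within 1 label spread widely, since induced Treg alone gave 1535, 1717, 3061, 3820 and 2586. Conventional T gave 1545, 1439 and 1751, within the range of induced Treg apart from its lowest array.

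Cldn11 encodes the claudin of the tight junctions between myelin layers, and Mal encodes a proteolipid of the raft-like membrane of myelin. Cldn11 1416003_at had an intensity of 1976 ± 631 (SD, n = 31), from 1137 on array 1 of induced Treg kept in IL-2 to 3313 on array 1 of natural Foxp3-delta. The 2 arrays of natural Foxp3-delta gave 3313 and 1875, which spans a large part of the range over all labels. Mal 1417275_at had an intensity of 8877 ± 2201 (SD, n = 31), from 5640 on array 2 of induced Treg kept in IL-2 to 14471 on array 3 of failed induced Treg. Its other 2 arrays of failed induced Treg gave 8214 and 6584.

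Ugt8a encodes the transferase that makes galactosylceramide, and Fa2h the hydroxylase that supplies the 2-hydroxylated fatty acids of myelin lipids. Ugt8a 1419063_at had an intensity of 4401 ± 1145 (SD, n = 31), from 2765 on array 3 of activated T to 6950 on array 1 of induced Foxp3-delta. Natural Treg arrays gave 3337, 3098, 3419 and 3331, close together, and activated natural Treg arrays gave 4037, 3467 and 4629. Fa2h 1426960_a_at had an intensity of 2021 ± 607 (SD, n = 31), from 1154 on array 2 of induced Treg kept in IL-2 to 3292 on array 2 of induced Foxp3-delta. Its natural Treg arrays gave 2006, 2053, 1766 and 1190, and its activated natural Treg arrays 1335, 1781 and 1941.

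In deposited intensity the activated natural Treg arrays were all above the natural Treg arrays for the brightest probe sets of 5 genes, Mbp, Mobp, Cnp, Mal and Ugt8a, and overlapped them for Mag (3216 to 4640 against 3495 to 4380), Mog (1329 to 1853 against 1357 to 1808), Cldn11 (1259 to 2298 against 1364 to 1984) and Fa2h. Of the 24 probe sets, 10 did not overlap, 6 of them higher in activated natural Treg, where 73.9% of all probe sets did not overlap and 1.13% were higher without overlap. These arrays are not on a common scale, and after quantile normalisation the difference for Mbp was -0.12.

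**Figure D2:**
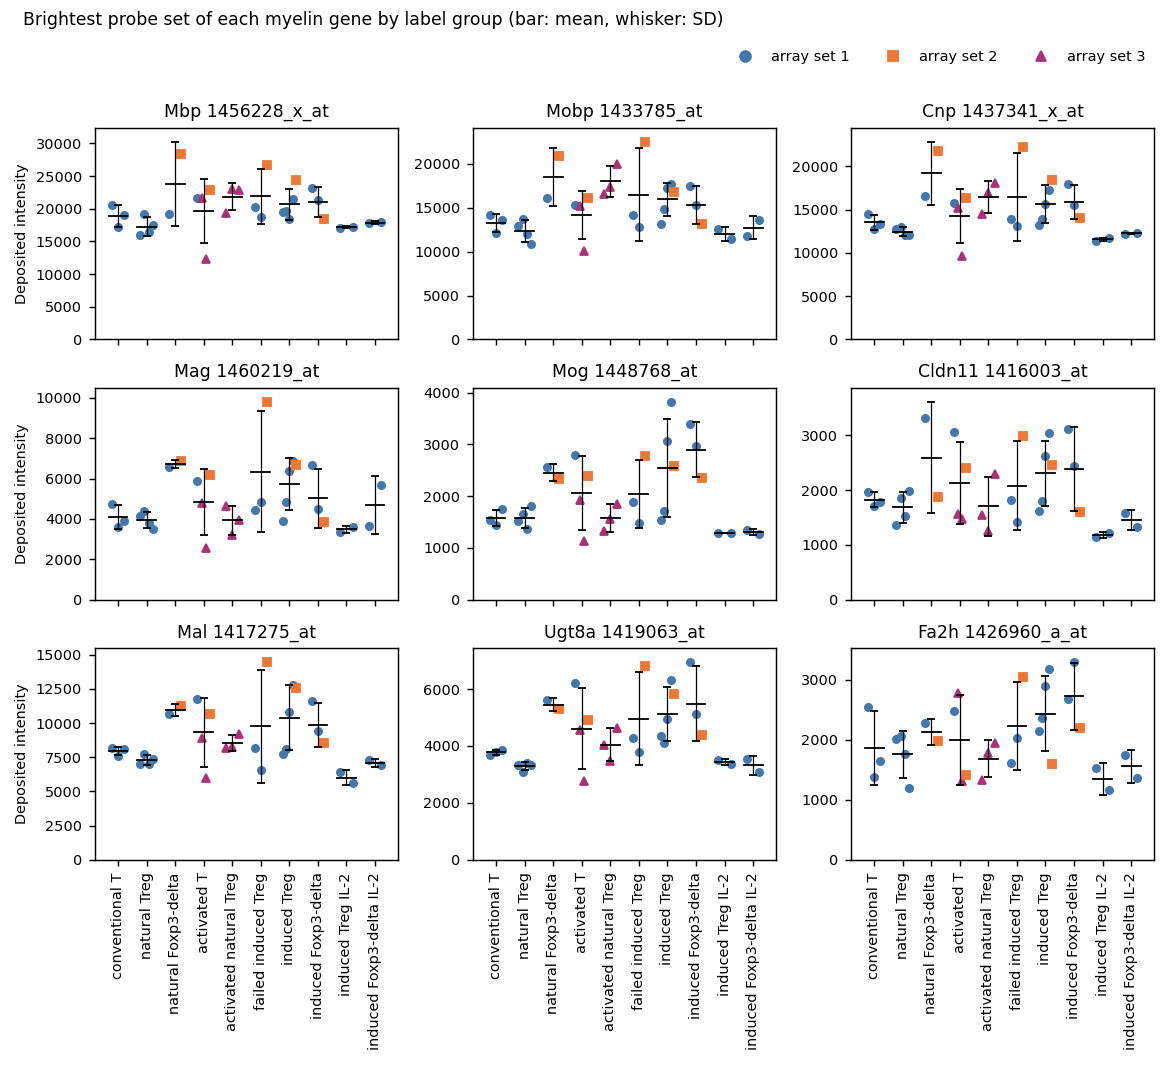
Deposited intensity (linear scale from 0) of the brightest probe set of each myelin gene on every array by label group; bars are group means, whiskers 1 SD, and colours and shapes the 3 array sets described in the text. Most groups overlap for all 9 genes, and array 3 of failed induced Treg and array 2 of natural Foxp3-delta, both of array set 2, hold several of the highest values.

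In deposited intensity the label induced Treg kept in IL-2 had the lowest group mean for 8 of the 9 genes, and natural Foxp3-delta or induced Foxp3-delta had the highest for all 9. For Mbp the means ran from 17176 ± 110 (SD, n = 2) to 23806 ± 6448 (SD, n = 2), and for Cldn11 from 1181 ± 62.8 (SD, n = 2) to 2594 ± 1017 (SD, n = 2). The larger means had SDs that covered much of the distance. An array's 99th percentile was 3402 and 3554 on the arrays of induced Treg kept in IL-2. It was 6417 and 6318 on natural Foxp3-delta arrays and 7471, 5954 and 4947 on induced Foxp3-delta arrays. Its part in the order of the groups was not tested. The share of all probe sets with the same lowest and highest labels is not given here. The deposited arrays were not on a common scale, with array medians from 22.2 to 55.4, so levels were compared after quantile normalisation, which gives every array the same distribution of intensities. On that scale, log2(intensity + 16), the 10 group means of Mbp lay between 14.19 and 14.38, those of Cnp between 13.83 and 13.94 and those of Mobp between 13.79 and 13.92. The widest range of group means among the 9 was that of Mog, from 10.55 for induced Foxp3-delta kept in IL-2 to 11.16 for induced Foxp3-delta. The largest gap between neighbouring group means was 0.19, for Mag. At the very top of an array quantile normalisation leaves little but the rank, and the SD of Cnp over conventional T arrays was 0 for that reason.

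Each comparison was tested with limma on the quantile normalised values over the 24669 probe sets above the table's median on at least 2 arrays, all 24 member probe sets among them, and called at a Benjamini-Hochberg adjusted p under 0.05. The moderated F test over the 10 labels called 1 of the 24, where it called 12.4% of all probe sets. The count was 8 of 24 on deposited values (53.7% of all) and 17 of 24 where each array was divided by its median (27.8% of all). Without array 1 of activated natural Treg 0 of 24 were called, and without any 1 of 5 other arrays 2 of 24 were. The shares of all probe sets called in those fits are not set beside these counts, which describe the members alone. The call on normalised values was the dim Mbp probe set 1425263_a_at (adjusted p = 0.0150). None of the 9 brightest probe sets was called; Mog was nearest (adjusted p = 0.0778) and Fa2h farthest (adjusted p = 0.964).

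The arrays also fell into sets, and 5 of the 10 labels were split over sets while the other 5 lay wholly in set 1 or set 3. Clustering on the array median and on how bright the cre spike-in control was over bioB (as a log2 ratio) gave set 1 with 21 arrays and sets 2 and 3 with 5 arrays each. All natural Treg and conventional T arrays were in set 1, and all activated natural Treg arrays were in set 3 with 2 activated T arrays. Adding the 99th percentile of each array to the measures, a definition chosen after the data had been seen, gave sets of 15, 10 and 6 arrays. The labels give no scan or preparation batch for these sets.

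What the myelin genes showed depended on the array set and on the scaling. When each array was divided by its median in place of quantile normalisation, the brightest probe sets of all 9 genes had a higher mean in set 2 than in set 1, by a median of 0.74 on the log2 scale, and in set 3, by a median of 0.66. Over all probe sets tested 60.1% were higher in set 2 and 54.5% in set 3, with medians of 0.06 and 0.02. After quantile normalisation 5 of 9 were higher in set 2 and 6 of 9 in set 3, with medians of 0.0041 and 0.031. Over all probe sets the medians were then -0.0019 and 5.5e-05. With the other definition the counts after quantile normalisation were 5 of 9 and 4 of 9.

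The comparison of activated natural Treg with natural Treg asks, by the labels, what both mAbs together with TGF-beta did to sorted regulatory T cells. Here 3 of the 24 member probe sets were called, where 15.6% of all probe sets were. Cnp 1418980_a_at was higher by 0.38 on the log2 scale (SE 0.12, adjusted p = 0.0298) and Mbp 1425263_a_at was higher by 0.50 (SE 0.10, adjusted p = 0.00323), whereas Mbp 1425264_s_at was lower by 0.30 (log2 difference -0.30, SE 0.08, adjusted p = 0.0183). None was its gene's brightest probe set, and the brightest ones of the same genes differed by -0.07 (Cnp, SE 0.05, adjusted p = 0.343) and -0.12 (Mbp, SE 0.08, adjusted p = 0.333). The median difference of the 24 was -0.035, beside -0.0010 over all probe sets tested, and 10 of the 24 were above 0. Without array 3 of activated natural Treg the call on Cnp 1418980_a_at was lost (0.30, adjusted p = 0.124), as it was without array 2 of that label or array 1, 3 or 4 of natural Treg. Without array 1 of activated natural Treg the difference of Mbp 1425264_s_at was -0.15 (adjusted p = 0.181).

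The values behind these 3 calls ran as follows. Cnp 1418980_a_at had deposited intensities of 2937, 3170, 2991 and 2684 on the natural Treg arrays and of 3083, 3618 and 5548 on the activated natural Treg arrays, and the third of these stood well above the others. Mbp 1425263_a_at had 71.7, 73.4, 74.0 and 62.2 against 63.8, 56.9 and 65.2, so the deposited values were mostly lower where the normalised ones were higher. Mbp 1425264_s_at had 253, 263, 269 and 229 against 87.2, 139 and 168. For all 3 probe sets the normalised groups did not overlap, as for 29.1% of all probe sets tested. No array set held both labels, so label and set cannot be told apart directly. With the set as a block in the fit none of the 24 was called, where 116 of all 24669 probe sets were. At an unadjusted p under 0.05 there were 2 of the 24 and 3625 of all. The differences were then 0.08 (adjusted p = 0.828), 0.32 (adjusted p = 0.367) and -0.23 (adjusted p = 0.468) in the order above.

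Scaling by array medians gave another picture. On that scale 17 of the 24 were called, all of them higher in activated natural Treg, where 15.4% of all probe sets were called higher. The median difference of the 24 was 0.82, beside 0.06 over all probe sets. Mobp 1433785_at differed by 1.24 (limma adjusted p = 0.00092), Cnp 1437341_x_at by 1.10 (adjusted p = 0.0020) and Mbp 1456228_x_at by 1.04 (adjusted p = 0.0028). The 99th percentile of the arrays over their median was itself higher by 0.84 in activated natural Treg and the 75th by 0.01, and the part of this shift in the members' differences was not tested. On deposited values 3 were called, where 62.9% of all probe sets were: Mobp 1433785_at higher (0.54, adjusted p = 0.0173), and Mbp 1425264_s_at (-0.91, adjusted p = 0.00266) and Ugt8a 1419064_a_at (-0.77, adjusted p = 0.00802) lower.

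**Figure D3:**
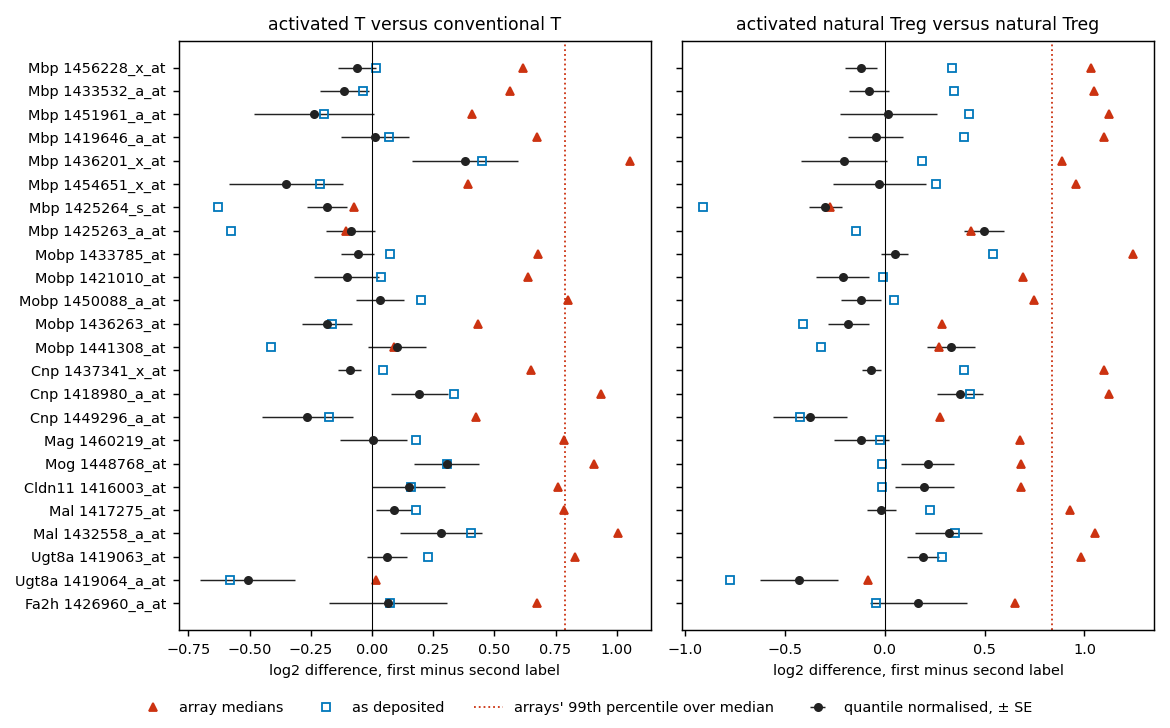
Log2 difference of each of the 24 probe sets between 2 pairs of labels, after quantile normalisation (black, with 1 SE), scaling by array medians (red triangles) and as deposited (open blue squares); the dotted line is the difference in the arrays' 99th percentile over their median (0.79 and 0.84). After quantile normalisation the values straddle 0, while on array medians most sit between 0 and the dotted line or beyond it.

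Activated T was compared with conventional T, which by the labels asks what both mAbs without TGF-beta did to conventional cells. With quantile normalisation 0 of the 24 were called by limma, where 6.17% of all probe sets were called. At an unadjusted p under 0.05 there were 3 of the 24 and 5803 of all 24669. Mog had the largest difference among the brightest probe sets, 0.31 (SE 0.13, 95% interval 0.03 to 0.58, adjusted p = 0.160), and its normalised values on activated T arrays, 10.99 to 11.18, lay above those on conventional T arrays at 10.67, 10.70 and 10.95. On that scale the groups did not overlap for 21.9% of all probe sets. Its deposited values of 2790, 1933, 1124 and 2390 overlapped those of conventional T. Cnp 1437341_x_at differed by -0.09 (95% interval -0.19 to 0.0040) and Mbp 1456228_x_at by -0.06 (95% interval -0.22 to 0.10). On array medians 15 of the 24 were called, all of them higher in activated T, where 24% of all probe sets were called higher. The median difference of the 24 was then 0.66 beside 0.12 over all probe sets, and the arrays' 99th percentile over their median was higher by 0.79. All genes but Fa2h had a called probe set on that scale. On deposited values 2 were called, both lower, where 23.7% of all probe sets were called lower; both were dim Mbp probe sets, 1425263_a_at (-0.57, adjusted p = 0.0258) and 1425264_s_at (-0.63, adjusted p = 0.0348).

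Natural Treg was compared with conventional T, the resting populations with and without Foxp3. Limma called 0 of the 24 and 0.00405% of all probe sets, and all arrays of both labels were in set 1. At an unadjusted p under 0.05 there were 0 of the 24 and 624 of all 24669. The brightest probe sets differed by -0.15 (Ugt8a, SE 0.08) to 0.05 (Mog, SE 0.13). The 95% interval for Mbp ran from -0.20 to 0.13 and that for Cnp from -0.14 to 0.05, while the interval for Fa2h, from -0.51 to 0.48, was wider. This comparison and that of activated T share the conventional T arrays.

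Natural Treg was compared with natural Foxp3-delta, EGFP+ cells with the intact and with the Foxp3deltaEGFP allele. None of the 24 was called by limma, where 0.0892% of all probe sets were called. At an unadjusted p under 0.05 there were 2 of the 24 and 3826 of all 24669. Only 2 natural Foxp3-delta arrays were available, 1 in set 1 and 1 in set 2. Without array 1 of natural Foxp3-delta, which leaves a lone array that is assumed to vary like the other groups, 2 were called, where that fit called 1.31% of all probe sets: Cnp 1449296_a_at higher in natural Treg by 1.01 (adjusted p = 0.0311) and Mobp 1441308_at lower (-0.65, adjusted p = 0.0438). On array medians Ugt8a 1419063_at (-0.81, adjusted p = 0.0449) and Mobp 1450088_a_at (-0.86, adjusted p = 0.0442) were called lower in natural Treg, where 7.17% of all probe sets were called lower and the 99th percentile over the median differed by -0.77.

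Induced Treg was compared with activated T, which differ by TGF-beta and by the sort for EGFP+ cells. Limma called 0 of the 24 and 0.0568% of all probe sets. At an unadjusted p under 0.05 there were 2 of the 24 and 2619 of all 24669. The brightest probe set with the largest difference was that of Cldn11, at -0.26 (SE 0.13, 95% interval -0.53 to 0.0065). On deposited values 6 of the 24 were called, all higher in induced Treg, where 62.6% of all probe sets were called higher. They were 3 probe sets of Mbp and 1 each of Mobp, Cnp and Ugt8a, with differences of 0.49 to 0.59. Between induced Treg and induced Foxp3-delta limma called 0 of the 24 and 0% of all probe sets. At an unadjusted p under 0.05 there were 3 of the 24 and 751 of all 24669. Mag differed by 0.28 (SE 0.13, 95% interval 0.0063 to 0.55) with an adjusted p of 1.00.

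Within-array ratios of 2 probe sets of 1 gene had a larger median SD than ratios between the brightest probe sets of different genes. The SD over the 31 arrays of the log2 ratio of 2 probe sets within an array, which no scaling of whole arrays can change, was 0.155 to 0.577 over the 43 pairs within a gene, with a median of 0.371. Over the 36 pairs of brightest probe sets of different genes it was 0.0848 to 0.411, with a median of 0.275. Within Mbp the median of 28 pairs was 0.410, and within Mobp that of 10 pairs was 0.311. Dim probe sets enter the pairs within a gene and not those between genes, so the medians are given as a description. They cannot show whether probe sets of 1 gene move together more or less closely than those of different genes.

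**Figure D4:**
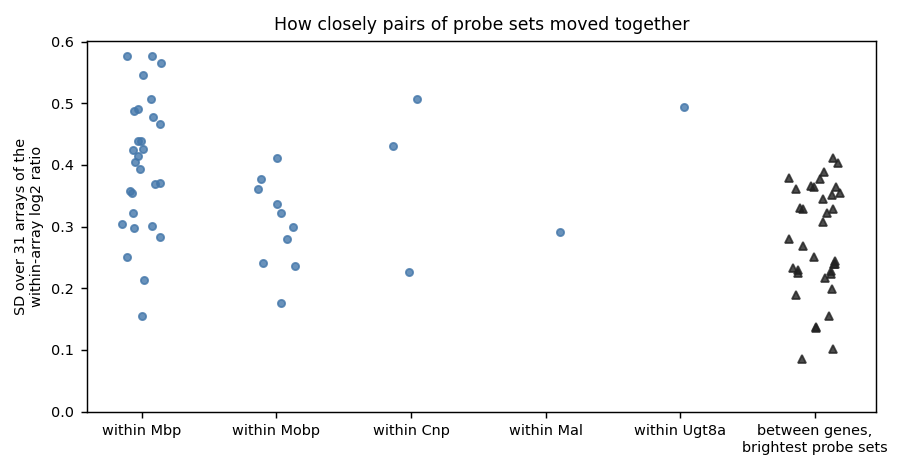
SD over the 31 arrays of the within-array log2 ratio of 2 probe sets: pairs of 1 gene (circles, 1 column a gene) and the 36 pairs of brightest probe sets of different genes (triangles); points are spread sideways for visibility. The lowest pair between genes, Mobp and Cnp at 0.0848, lies below all 43 pairs within a gene, whose lowest is 0.155.

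The largest SDs, up to 0.577, belonged to Mbp pairs with the dim probe set 1425264_s_at. Cnp disagreed between 2 probe sets of similar intensity. Its probe sets 1418980_a_at and 1449296_a_at had mean intensities of 4002 and 3311, and the log2 ratio of the first to the second had an SD of 0.507 and spanned 1.96 over the arrays. The ratio averaged -0.11 ± 0.09 (SD, n = 4) on natural Treg arrays and -0.08 ± 0.05 (SD, n = 3) on conventional T arrays, and 0.74 ± 0.20 (SD, n = 3) on activated natural Treg arrays. It averaged -0.03 over the 21 arrays of set 1, 1.08 over the 5 of set 2 and 0.62 over the 5 of set 3, so the choice of probe set decides how Cnp differs between sets and labels. The deposited values of 1449296_a_at were 3135, 3153, 3421 and 3032 on natural Treg arrays and 1894, 2461 and 2859 on activated natural Treg arrays. They were thus all lower on activated natural Treg arrays. Those of 1418980_a_at, given above, were mostly higher there, but the 2 labels overlapped.

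The probe sets of Ugt8a disagreed as well. The log2 ratio of 1419063_at to 1419064_a_at had an SD of 0.493, and ran from 1.16 to 1.51 on natural Treg arrays and from 2.22 to 2.54 on activated natural Treg arrays. The first probe set was higher on the activated arrays, as given above, while the second measured 1364, 1086, 1528 and 1433 on natural Treg arrays and 693, 687 and 992 on activated natural Treg arrays. By set the ratio averaged 1.55, 2.23 and 2.27. The log2 ratio of the 3′ to the 5′ actin control, a measure of RNA integrity and labelling length, was 1.03 to 1.09 on activated natural Treg arrays and 0.79 to 0.88 on natural Treg arrays; that of Gapdh was -0.15 to 0.03 and 0.02 to 0.04. Their part in the probe set ratios was not tested.

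**Figure D5:**
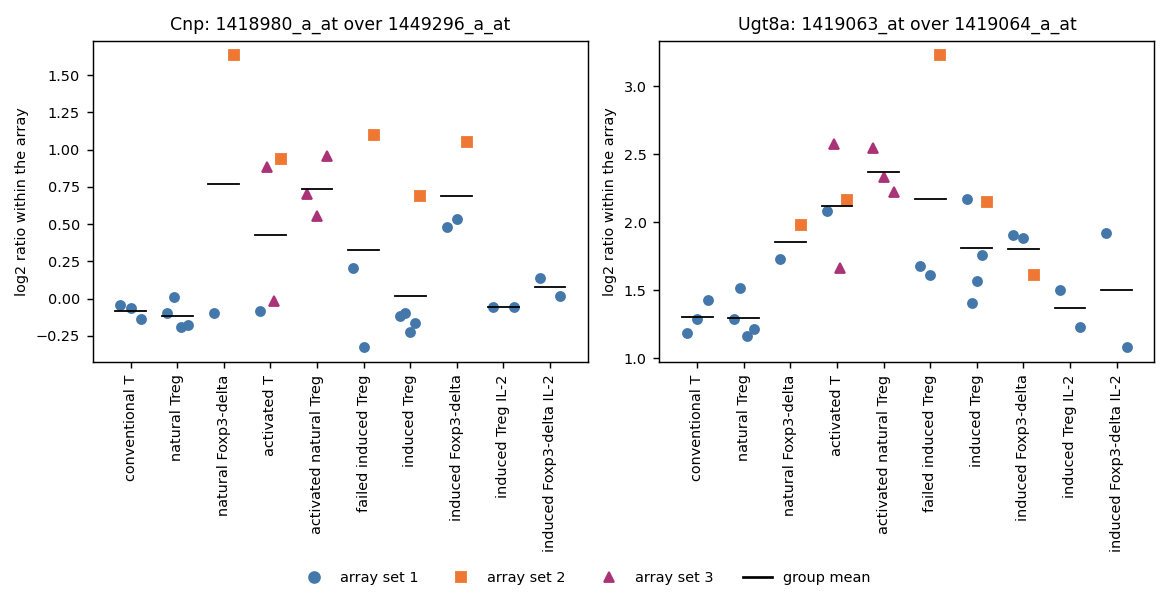
Within-array log2 ratio of 2 probe sets of Cnp and of Ugt8a on every array by label group, with the array set as colour and shape and the group mean as a bar. All natural Treg arrays lie below all activated natural Treg arrays in both panels (Ugt8a at most 1.51 against at least 2.22), and array set 2 holds the highest ratios, 1.63 for Cnp and 3.23 for Ugt8a.

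Across arrays the 9 genes showed no shared variation that passed a test. Within set 1 (n = 21), the 36 pairwise correlations of quantile normalised brightest probe sets ran from -0.488 to 0.576 with a median of -0.07, and 0 had an adjusted permutation p under 0.05, by Pearson's r or Spearman's rho. In the sets of 15, 10 and 6 arrays of the other definition the medians were -0.03, 0.05 and -0.13, again with 0 pairs past the adjusted threshold. With 6 arrays the possible orderings are too few for a lone pair to pass it, so no conclusion is drawn from that set. Over all 31 arrays the correlation of a gene with the mean of the other 8 ran from -0.45 for Mbp to 0.38 for Mal, given as a description. Values this near the top of the normalised distribution have little room to vary.

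The genes whose pattern over the 31 arrays was most like the mean of the 9 were Gars (r = 0.78), P4ha1 (0.73), Clec3b (0.72), Flii (0.71), 1110004F10Rik (0.71) and Ift22 (0.70), out of 12164 genes. They were picked as the highest over these arrays, and the sets are parts of the same arrays, so values within sets are no separate check. The mean was of centred values left unscaled, so members that varied more weighed more (SD 0.305 for Fa2h, 0.041 for Cnp). The members themselves correlated with the mean of the other 8 at only -0.45 (Mbp) to 0.38 (Mal). Within set 1 alone the correlations of the 6 genes were 0.65, 0.63, 0.64, 0.72, 0.31 and 0.62. By the other definition they were 0.59, 0.56, 0.67, 0.70, 0.22 and 0.66 in the set of 15 arrays. In the set of 10 they were 0.83, 0.65, 0.65, 0.66, 0.88 and 0.80, and in that of 6 they were 0.51, 0.57, 0.06, 0.81, 0.08 and 0.16. None of these 6 belongs to the lists of myelin genes used here.

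Other genes of myelin and of its lipids were also high. Of a list of 22 other myelin protein genes, 19 were measured, with a median percentile of 96.5 that ran from 95.9 to 97.1 over the arrays. Plekhb1 (11656 ± 4033, SD, n = 31), Bcas1 (9436 ± 3181, SD, n = 31) and Car2, a carbonic anhydrase of oligodendrocytes (8266 ± 2868, SD, n = 31), were the brightest of it. All 10 genes of the galactolipid pathway were measured, with a median percentile of 91.6, led by Psap, the saposin precursor needed to break these lipids down (7964 ± 2675, SD, n = 31). Of 5 peripheral myelin genes, 3 were measured: Pmp22 was high (4546 ± 1537, SD, n = 31), while Egr2, a transcription factor of Schwann cells, and Pmp2, a fatty acid binding protein of their myelin, were at 37.5 ± 9.14 and 35.8 ± 11.9 (SD, n = 31), below the middle of the arrays at median percentiles of 48.6 and 47.8.

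In activated natural Treg against natural Treg, where 15.6% of all probe sets were called, 1 of 19 other myelin genes was called, Tmem63a, an ion channel (0.31, SE 0.09, adjusted p = 0.0239), and 1 of 10 galactolipid genes, Degs1, the desaturase that makes ceramide (0.41, SE 0.09, adjusted p = 0.00655). When the fit had the array set as a block, the differences were 0.13 (adjusted p = 0.688) and 0.18 (adjusted p = 0.614). The F test over labels, which called 12.4% of all probe sets, called Degs1 (adjusted p = 0.0210) and 0 of the 19. The other 5 comparisons called 0 of either list by limma.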

How the data were processed

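The authors deposited 1 intensity for each probe set and array, in linear units as its values show. Their probe summary, background correction and array scaling are not given in the sources used here. Of 45101 probe sets, 64 controls were left out of ranks and tests; 34945 of the rest carried 1 gene symbol in the platform annotation, 932 several and 9160 none. Arrays correlated at r = 0.981 to 0.997, and each was counted as 1 sample.

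Intensities were quantile normalised, taken as log2(intensity + 16) and fitted over all 31 arrays with 1 mean per label group in limma 3.58.1 (R 4.3.3), with Benjamini-Hochberg adjustment over the 24669 probe sets above the table's median (39.8) on at least 2 arrays. Differences of dim probe sets are understated on this scale. The code was tested on simulated data. Permutation tests used SciPy 1.17.1. The number of arrays limits the precision.

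The text names all 9 members, the called or brightest genes of 2 related lists, and the 6 genes most like the members' mean. The members and lists were chosen with earlier results of these data known. No pairing by replicate number was assumed. Deviations of same-numbered arrays correlated with a median of 0.00066, beside -0.0020 for arrays of different numbers. Of the 31 arrays, 11 matched an array of their own number best, and the number expected without pairing is not given here. Whether the numbers pair samples is not settled by these values. Alternatives were other scalings, log2(intensity + 1), no filter, 1 probe set a gene, the array set or replicate number as a block, and leaving out each array.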

Additional observations from a re-analysis of the deposited data

Results flagged for a closer look

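Of 72 groups of 4 or 5 arrays examined (24 probe sets in 3 labels), 6 held an array far from the others by Dixon's criterion at 95%. Chance gives about 1 in 20 for values without ties, and the share over all probe sets is not given here. Values are quantile normalised log2. Mbp 1456228_x_at on array 3 of activated T was at 14.15 with the others at 14.32. The others were tied, all at rank 2 of their array against rank 6, so any different value would have been flagged. Mbp 1425264_s_at on array 4 of natural Treg was at 7.95 with the others at 8.02, and Mobp 1433785_at on the same array was at 13.74 with the others at 13.90 to 13.92. Ugt8a 1419063_at on array 2 of natural Treg was at 11.84 with the others at 12.03 to 12.05. On array 5 of induced Treg, the only array of that label in array set 2, Mbp 1425263_a_at was at 6.50 with the others at 6.27 to 6.34, and Cnp 1449296_a_at was at 11.38 with the others at 11.88 to 11.95.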

How the results depend on the processing

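Counts of the 24 probe sets called depended on the scaling and the array set. For any label group the count was 1, and it was 8 as deposited, 17 on array medians, 0 with 1 probe set a gene and 0 with the array set as a block under either definition. For activated T against conventional T it was 0, and 2 as deposited and 15 on array medians. For natural Treg against natural Foxp3-delta it was 0, and 2 on array medians. For induced Treg against activated T it was 0, and 6 as deposited. For activated natural Treg against natural Treg it was 3, and 17 on array medians. It was 0 of 9 with 1 probe set a gene, where 2028 of all 12173 were called. With either block it was 0, where 116 and, under the other definition, 49 of all 24669 were called. Mbp 1425263_a_at reversed in that comparison on deposited values (-0.15, adjusted p = 0.443). The cause was not tested. Counts from fits that leave out 1 array follow, without the shares of all probe sets called in those fits. They describe the members alone and do not show that members changed more than other probe sets. Leaving out 1 array gave 0 to 2 for any label group, 0 to 2 for natural Treg against natural Foxp3-delta, 2 to 4 for activated natural Treg against natural Treg, and 0 for the other 4. The count for any label group was 0 without array 1 of activated natural Treg, and 2 without array 1 or 2 of induced Treg (Mog added), array 3 of failed induced Treg or of activated natural Treg (Mbp 1425264_s_at added), or array 1 of natural Foxp3-delta (Cnp 1449296_a_at added). The replicate block left the counts at 1 for any label group, 3 for activated natural Treg against natural Treg and 0 for the other 5 comparisons; it moved the count over all probe sets for natural Treg against natural Foxp3-delta from 22 to 831. Over leave-one-out fits the difference of Cnp 1418980_a_at ran from 0.30 to 0.43, that of Mbp 1425263_a_at from 0.39 to 0.55 and that of Mbp 1425264_s_at from -0.38 to -0.15.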
